A study of Macaca mulatta with 4 samples.

Results

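Cells build cholesterol from acetyl-CoA through the mevalonate and lanosterol steps, and build fatty acids from the same precursor through acetyl-CoA carboxylase and fatty acid synthase, followed by elongases and desaturases. Both routes are switched on by the sterol regulatory element binding proteins (SREBPs), which the escort SCAP carries out of the endoplasmic reticulum when sterols are scarce and which INSIG proteins hold back when sterols are plentiful. The brain makes its own cholesterol, since lipoproteins of the blood do not cross its barrier, and forming myelin is a large consumer of both cholesterol and fatty acids. The genes described here are 31 enzymes and regulators of these routes, chosen by name from textbook pathways with earlier results of these data known. Of the 31, 30 were matched by symbol among the 33618 genes of the deposited count table, and all 30 passed the filter on low counts that left 17693 genes for testing. CYP51A1, the lanosterol demethylase, was not matched by symbol and is given separately.

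RNA was sequenced from the prefrontal cortex of wild-type infant rhesus macaques in 4 libraries. The 2 control libraries (replicates 2 and 3) are labelled with no agent. The 2 sevoflurane libraries (replicates 2 and 3) came from animals that inhaled about 2.5 to 3% of this volatile anaesthetic for 4 hours on 3 occasions, near postnatal day 7 and then 14 and 28 days later, and the tissue was collected directly after the last exposure. The labels state neither how control animals were handled nor that replicates were separate animals, so the p-values reflect variation among these libraries alone, possibly of technical origin.

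Levels are CPM, counts brought to one common library size after scaling by the trimmed mean of M values (TMM), given for each library with replicate 2 before replicate 3. Differences are log2 fold changes of sevoflurane against control from edgeR's quasi-likelihood test with its standard error (SE). The threshold for calling a gene was an adjusted p under 0.05, by the Benjamini-Hochberg method across the 17693 genes. Totals ran from 7793757 to 11706115 counts per library, and the members had between 65 and 7637 counts in a library. The library with the fewest counts, control replicate 3, had the most extreme score on principal component 1, at 50.02 against 0.44 for the other control and -28.8 and -21.7 for the sevoflurane libraries. CPM is not scaled to gene length, so levels are compared between libraries and never between genes.

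The comparison asked whether genes of lipid synthesis differed in cortex after sevoflurane. The 17 enzymes of sterol synthesis had a summed level of 1608 and 1611 CPM in the controls and 1619 and 1613 CPM after sevoflurane, and none was called. The 5 members that desaturate and elongate fatty acids were 14.1% to 31.6% lower in mean level after sevoflurane without passing the test. None of the 30 genes was called by edgeR's quasi-likelihood test, against 0.0622% of all tested genes called higher and 0.537% called lower. At an unadjusted p under 0.05 there were 4 members, all of them lower (SCD, ELOVL5, FADS2 and ELOVL6), where 5.57% of all tested genes were lower and 4.35% higher at that level. The other tools called 0 members (limma-voom), 1 (DESeq2, SCD) and 2 (edgeR's likelihood ratio test, SCD and ELOVL5). The median log2 fold change of the 30 was -0.08, beside -0.00 over all tested genes, with 11 positive and 19 negative values. Both sevoflurane libraries lay below both controls for 10 members and above both for 5, arrangements seen in 20.4% and 20.8% of all tested genes.

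The intervals were narrow. For all 30 members the 95% interval of the difference lay inside a 2-fold change in either direction, with the most extreme bounds at -0.85 (ELOVL5) and 0.80 (PMVK). That held for 62.4% of all tested genes, and for 83.6% of the 13070 genes with a mean of at least 5 CPM, a level all members exceeded. Smaller changes that lie within a member's interval were not excluded by these libraries.

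**Figure D1:**
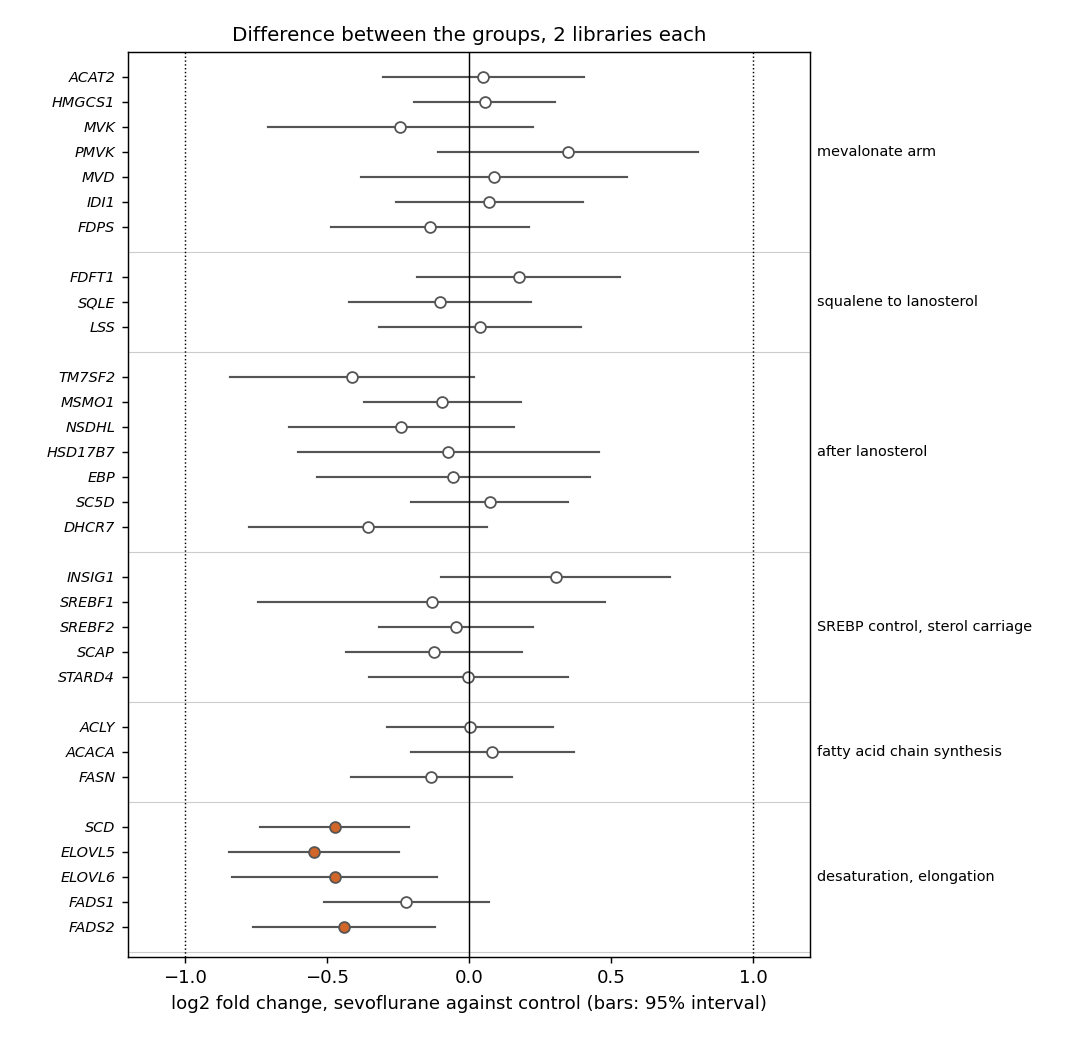
Log2 fold change of each member, sevoflurane against control, with its 95% interval (bars) from edgeR's quasi-likelihood fit on 2 libraries per group. Filled points have an unadjusted p under 0.05 and dotted lines mark a 2-fold change; every interval lies between the dotted lines, and the 4 filled points are all desaturases or elongases.

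For the description below the genes are ordered by biochemical step, a division made after their values had been seen. The first stretch of the sterol route runs from acetyl-CoA to farnesyl pyrophosphate. HMGCS1, which makes HMG-CoA, had 445 and 435 CPM in the controls and 461 and 452 CPM after sevoflurane. The sevoflurane libraries were the higher ones, at 104% of the control mean, and the difference had a log2 value of 0.05 (SE 0.11, 95% interval -0.19 to 0.30, adjusted p = 0.927). ACAT2, the thiolase that joins acetyl-CoA units, had a log2 difference of 0.05, and IDI1, the isomerase of isopentenyl pyrophosphate, had 0.07. FDPS, which makes farnesyl pyrophosphate, had -0.14.

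Of the mevalonate kinases, PMVK had a positive and MVK a negative value. PMVK, phosphomevalonate kinase, had 18.6 and 19.1 CPM in the controls and 26.5 and 21.6 CPM after sevoflurane. Both sevoflurane libraries were above both controls, at a log2 difference of 0.35 (SE 0.20, adjusted p = 0.649), and without sevoflurane replicate 2 the value was 0.19. MVK, mevalonate kinase, had a log2 difference of -0.24 (SE 0.21), with overlapping groups, and -0.05 without control replicate 3 or -0.42 without control replicate 2. MVD, the decarboxylase that follows them, showed how far libraries of one group could part. Its levels were 58.1 and 77.4 CPM in the controls and 84.8 and 58.9 CPM after sevoflurane. On the log2 scale, replicate 3 minus replicate 2 was 0.41 in the controls and -0.52 after sevoflurane, where the difference between the groups was 0.09.

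The steps through squalene to lanosterol had small differences. SQLE, squalene epoxidase and a rate-limiting enzyme of the route, had 83.1 and 96.3 CPM in the controls and 81.2 and 85.9 CPM after sevoflurane. The groups overlapped, with a log2 difference of -0.10 (SE 0.14, 95% interval -0.42 to 0.22, adjusted p = 0.888). LSS, which closes squalene epoxide into lanosterol, ranged from 38.1 to 40.0 CPM over the 4 libraries, a log2 difference of 0.04. FDFT1, squalene synthase, had 0.17 (SE 0.16), with overlapping groups. Leaving out a sevoflurane library gave 0.01 (without replicate 3) or 0.32 (without replicate 2).

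Among the enzymes after lanosterol, TM7SF2 and DHCR7 had the lowest values. TM7SF2, a sterol reductase, had 50.9 and 70.8 CPM in the controls and 42.4 and 49.0 CPM after sevoflurane. Both sevoflurane libraries were below both controls, and control replicate 3 stood well above the other 3 libraries. The log2 difference was -0.41 (SE 0.19, 95% interval -0.84 to 0.02, adjusted p = 0.532), and leaving out a control gave -0.16 (without replicate 3) or -0.63 (without replicate 2). DHCR7, the reductase of the last step to cholesterol, had 30.5 and 36.6 CPM in the controls and 24.5 and 27.8 CPM after sevoflurane. Its groups did not overlap either, at a log2 difference of -0.36 (SE 0.19, adjusted p = 0.599), and -0.22 without control replicate 3.

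The rest of this stretch lay closer to 0. NSDHL, a dehydrogenase that helps strip methyl groups from the sterol ring, had a log2 difference of -0.24, and MSMO1, the methyl sterol oxidase, had -0.09. HSD17B7, a sterol ketoreductase, had -0.07. EBP, a sterol isomerase, had -0.06, and SC5D, a sterol desaturase, had 0.07. NSDHL and MSMO1, like TM7SF2 and DHCR7, were lower in both sevoflurane libraries than in both controls. That arrangement held for 4 of the 7 members after lanosterol and for 20.4% of all tested genes. Of the 7 values, 6 were negative and 1 was positive. EBP levels were 32.5 and 43.5 CPM in the controls and 31.0 and 41.9 CPM after sevoflurane, so that the spread within each group was far larger than the difference between them. CYP51A1 is paired by RefSeq with a gene number that the table lists without a symbol. That row had 160 and 173 CPM in the controls and 167 and 153 CPM after sevoflurane, a log2 difference of -0.06 (SE 0.13), and it is not among the 30.

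HMGCS1 and SC5D supply the largest shares of the reads in the summed level of the 17 sterol enzymes. Their median log2 difference was -0.06, with 8 positive and 9 negative values. In 3 of the 17 both sevoflurane libraries were above both controls and in 5 below, where the shares over all tested genes were 20.8% and 20.4%.

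**Figure D2:**
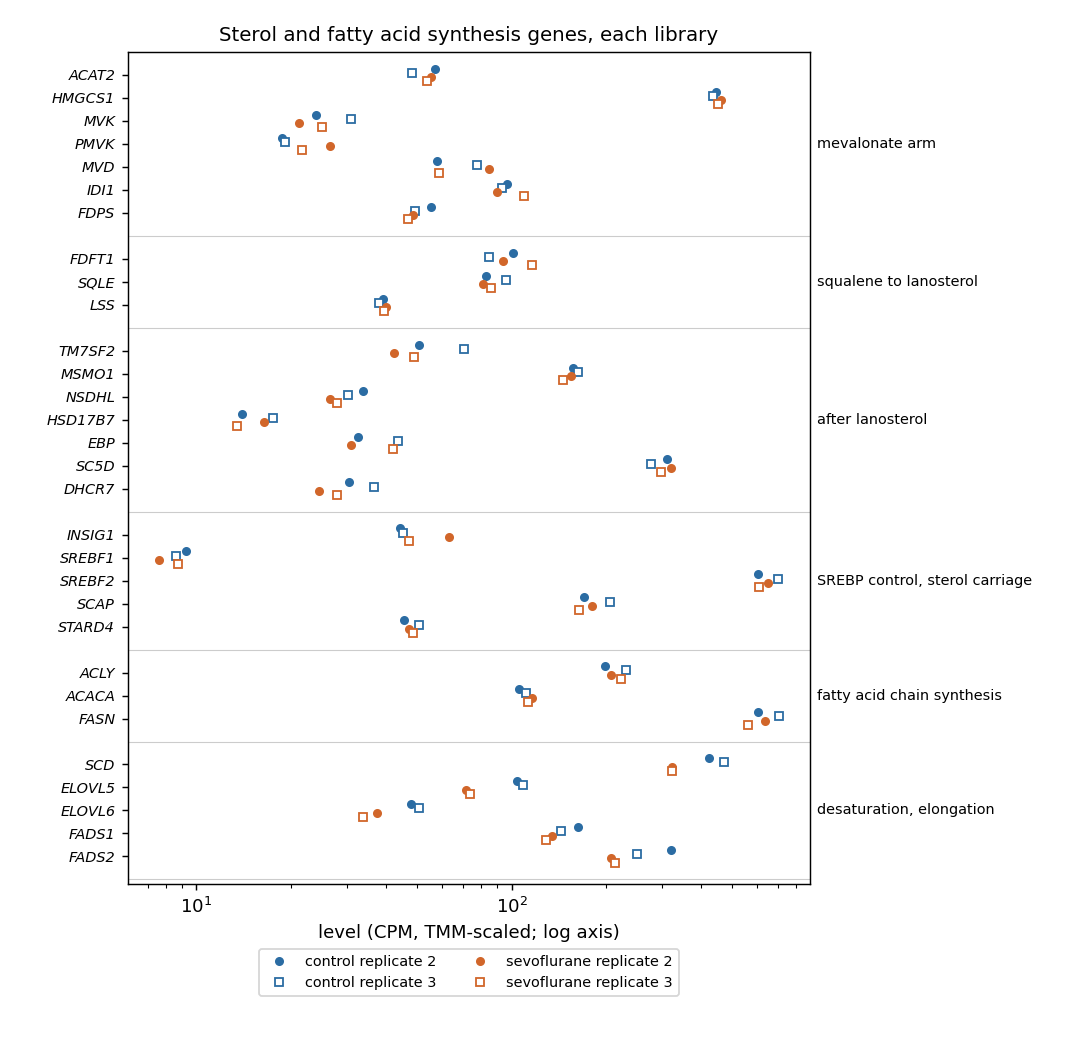
Level of each member in each of the 4 libraries (CPM, TMM-scaled, log axis), ordered by step of the pathway. Control (blue) and sevoflurane (orange) points intermix for 9 of the 17 sterol enzymes, with both sevoflurane points to the left for 5 and to the right for 3. For all 5 desaturases and elongases both sevoflurane points lie left of both control points.

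The regulators of the pathway did not pass the test either. SREBF2 encodes the SREBP that mainly drives sterol genes, and it had 605 and 699 CPM in the controls and 652 and 611 CPM after sevoflurane. The groups overlapped, with a log2 difference of -0.05 (SE 0.12, 95% interval -0.32 to 0.22). SREBF1, whose product mainly drives fatty acid genes, had 9.27 and 8.62 CPM in the controls and 7.60 and 8.74 CPM after sevoflurane. Its counts, 65 to 103 per library, were the lowest of the members, and the log2 difference was -0.13 (SE 0.27, 95% interval -0.74 to 0.48). SCAP, the escort of the SREBPs, had 170 and 205 CPM in the controls and 180 and 164 CPM after sevoflurane, with overlapping groups and a log2 difference of -0.12 (SE 0.14).

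INSIG1, the retention protein that is itself a target of the SREBPs, had 44.2 and 45.4 CPM in the controls and 63.1 and 47.4 CPM after sevoflurane. Sevoflurane replicate 2 alone stood clear of the other 3 libraries. The log2 difference was 0.30 (SE 0.18, 95% interval -0.10 to 0.71, adjusted p = 0.65), and it was 0.08 without that library. STARD4, a carrier that moves cholesterol through the cytosol, had a log2 difference of -0.00 (SE 0.16).

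Fatty acid synthesis up to the saturated chain also had small differences. ACLY, which splits citrate to give cytosolic acetyl-CoA, had a log2 difference of 0.00 (SE 0.13). ACACA, acetyl-CoA carboxylase and the committed step, had 105 and 111 CPM in the controls and 116 and 112 CPM after sevoflurane. Its sevoflurane libraries were the higher ones by a narrow margin, with a log2 difference of 0.08 (SE 0.13, adjusted p = 0.904). FASN, fatty acid synthase, had 606 and 706 CPM in the controls and 636 and 561 CPM after sevoflurane. The groups overlapped, and the log2 difference was -0.13 (SE 0.13, 95% interval -0.42 to 0.15, adjusted p = 0.812).

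The 5 members that modify the finished chain lay lower in both sevoflurane libraries than in both controls, an arrangement found in 20.4% of all tested genes. Over the 8 fatty acid members together, 5 were below, 1 was above and 2 overlapped. SCD, stearoyl-CoA desaturase, which makes oleic acid, the main monounsaturated fatty acid of myelin, had 424 and 473 CPM in the controls and 323 and 324 CPM after sevoflurane. The sevoflurane libraries were almost equal and 28.0% below the control mean. The log2 difference was -0.47 (SE 0.12, 95% interval -0.74 to -0.21, unadjusted p = 0.00272, adjusted p = 0.154 by edgeR's quasi-likelihood test). DESeq2 gave SCD an adjusted p = 0.044.

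ELOVL5, an elongase of polyunsaturated fatty acids, had 104 and 109 CPM in the controls and 71.8 and 73.6 CPM after sevoflurane. The gap between the groups was far wider than the gap within either, at a log2 difference of -0.55 (SE 0.13, 95% interval -0.85 to -0.25, unadjusted p = 0.00244, adjusted p = 0.149 by edgeR's quasi-likelihood test). ELOVL6, the elongase that turns palmitate into stearate, had 47.9 and 50.8 CPM in the controls and 37.3 and 33.8 CPM after sevoflurane. It was lower in both sevoflurane libraries, at a log2 difference of -0.47 (SE 0.16, adjusted p = 0.335). With any 1 library left out, the values stayed between -0.58 and -0.51 for ELOVL5, between -0.55 and -0.40 for ELOVL6, and between -0.55 and -0.39 for SCD. SCD was called without control replicate 2 (adjusted p = 0.0257 by edgeR's quasi-likelihood test), and had adjusted p = 0.108 without the other control. Leaving out a sevoflurane library gave SCD an adjusted p of 0.831 (without replicate 2) or 0.734 (without replicate 3). ELOVL5 and ELOVL6 were not called with any library left out, with adjusted p of 0.0717 to 0.787 and 0.156 to 1.

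FADS2 and FADS1 are the desaturases that open and continue the synthesis of long polyunsaturated fatty acids. FADS2 had 320 and 249 CPM in the controls and 207 and 213 CPM after sevoflurane. Control replicate 2 was the high library, and the log2 difference of -0.44 (SE 0.14, unadjusted p = 0.0124, adjusted p = 0.304 by edgeR's quasi-likelihood test) depended on it. Without control replicate 2 the value was -0.25, and without control replicate 3 it was -0.61 and called (adjusted p = 0.0377 by edgeR's quasi-likelihood test). It was not called in the other 3 such fits, with adjusted p of 0.214 to 0.999. FADS1 had 162 and 144 CPM in the controls and 134 and 128 CPM after sevoflurane, at a log2 difference of -0.22 (SE 0.13, adjusted p = 0.649), and -0.13 without control replicate 2.

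**Figure D3:**
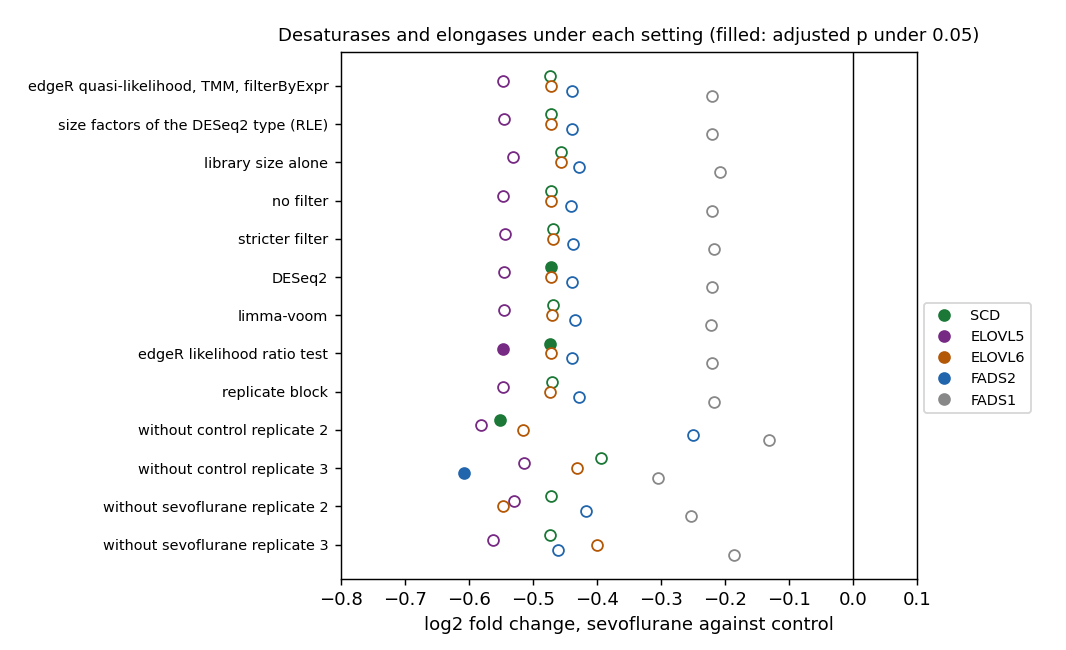
Log2 fold change of SCD, ELOVL5, ELOVL6, FADS2 and FADS1 (horizontal axis) under each setting (rows), with filled points where the adjusted p is under 0.05. All values are negative; SCD is filled in 3 settings, and ELOVL5 and FADS2 in 1 each.

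Other genes of the pathway gave a called gene in a single case. Of 25 tested genes for activation, elongation and other handling of fatty acids, ELOVL1 was called lower and 24 were not called. Their median log2 difference was -0.12. At an unadjusted p under 0.05 by edgeR's quasi-likelihood test, 2 were higher and 3 lower, against 4.35% and 5.57% of all tested genes. Besides ELOVL1, and named after their values were seen, these were ACSL4 (0.44), ACSL3 (0.29), SLC25A1 (-0.52) and MID1IP1 (-0.67). Groups overlapped for the other listed elongases, ELOVL2 (-0.17), ELOVL4 (0.31) and ELOVL7 (0.12), and for the desaturase SCD5 (-0.32). ELOVL1 is the elongase of saturated very long chains, which myelin sphingolipids carry. It had 58.5 and 74.0 CPM in the controls and 22.8 and 28.1 CPM after sevoflurane. It fell by 1.38 on the log2 scale (SE 0.19, 95% interval -1.80 to -0.95, adjusted p = 0.0197 by edgeR's quasi-likelihood test), and it was called under every alternative, with adjusted p up to 0.0407.

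Of 15 tested genes of sterol sensing and related enzymes, 0 were called by edgeR's quasi-likelihood test and 2 had an unadjusted p under 0.05, with a median of -0.08. INSIG2, the sister of INSIG1, had the smallest p, with 22.2 and 18.3 CPM in the controls and 29.0 and 34.5 CPM after sevoflurane (0.65, SE 0.20, adjusted p = 0.28). Of 20 tested genes of sterol transport and turnover, 0 were called by that test and 3 had an unadjusted p under 0.05, with a median of -0.09. ABCG1, an exporter of cholesterol, had the smallest p of these, with 37.1 and 38.6 CPM in the controls and 54.5 and 75.0 CPM after sevoflurane (0.78, SE 0.19, adjusted p = 0.143). In both genes the sevoflurane libraries were above the controls. The other genes at that level, named after their values were seen, were FAXDC2 (-0.62, SE 0.21, adjusted p = 0.342), NPC1, which moves cholesterol out of lysosomes (-0.58, SE 0.15, adjusted p = 0.183), and LPL, lipoprotein lipase (0.45, SE 0.18, adjusted p = 0.441). FAXDC2 and NPC1 were lower in both sevoflurane libraries and LPL was higher. Over all tested genes, 5.57% were lower and 4.35% higher at an unadjusted p under 0.05.

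Most markers of mature oligodendrocytes, the cells that form myelin, moved with the groups. Of 18 such markers, chosen with earlier results of these data known, 14 were called lower and 0 higher. The shares over all tested genes were 0.537% and 0.0622%. In 17 markers both sevoflurane libraries were below both controls, and in TSPAN2 (0.45, SE 0.26) both were above. The median was -1.86. The markers' summed level was 5952 and 10460 CPM in the controls and 1592 and 2373 CPM after sevoflurane. Averaged over the markers, each library's log2 deviation from the 4-library mean was 0.54 in control replicate 2, 1.13 in control replicate 3, -1.06 in sevoflurane replicate 2 and -0.61 in sevoflurane replicate 3. In the same order of libraries, the deviations were 0.23, 0.19, -0.20 and -0.23 for the 5 desaturases and elongases. For the 17 sterol enzymes they were -0.02, 0.07, -0.03 and -0.01. The part of oligodendrocyte RNA in their values was not tested. In bulk tissue, fewer cells of a type and less RNA per cell cannot be told apart.

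Markers of other cell types, from lists also chosen with earlier results of these data known, showed smaller or uneven differences. All 10 neuron markers were detected in every library of this tissue labelled cortex, and 0 were called by edgeR's quasi-likelihood test (0 at an unadjusted p under 0.05), with deviations of -0.32 in control replicate 2 and 0.06 to 0.15 in the other 3 libraries. The 10 astrocyte markers, cells that also make sterols, had deviations of 0.21 and 0.10 in the controls and -0.17 and -0.14 after sevoflurane, with summed levels of 10796 and 9185 CPM against 7059 and 6916 CPM. Of these, GFAP was called lower. Its 5249 and 3877 CPM in the controls and 1531 and 1898 CPM after sevoflurane made up most of the summed difference. Of the 10 log2 differences, 3 were positive and 7 negative. The median deviations of the list were 0.03 and 0.01 in the controls and -0.05 and -0.15 after sevoflurane. The oligodendrocyte precursor list holds 8 markers, some of them, such as OLIG2 and SOX10, shared with later stages of the lineage. Its deviations were 0.36 and 0.63 in the controls and -0.66 and -0.34 after sevoflurane. All 8 were lower in both sevoflurane libraries than in both controls, as were 20.4% of all tested genes. Their log2 differences ran from -1.76 (BCAS1) to -0.14 (PDGFRA), with a median of -1.14. The 3 called lower were OLIG2, SOX10 and BCAS1, while PDGFRA and CSPG4 (-0.55, SE 0.16) were among those not called. Deviations of the 7 fibroblast markers, with 1 called higher, were between -0.94, in control replicate 3, and 1.05, which belongs to sevoflurane replicate 2. Deviations of the 8 microglia markers ranged from -0.25 to 0.15, with CX3CR1 (-1.03, SE 0.14) called lower. At an unadjusted p under 0.05 by edgeR's quasi-likelihood test, 2 were lower (CX3CR1 and CSF1R) and 2 higher (C1QA and C1QB). The shares over all tested genes were 5.57% and 4.35%. Deviations of the 5 endothelial markers ranged from -0.08 to 0.10, with 0 called by edgeR's quasi-likelihood test and 0 at an unadjusted p under 0.05. No marker of any list was at 0 in any library, and the part of these cells in the members' values was not tested.

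**Figure D4:**
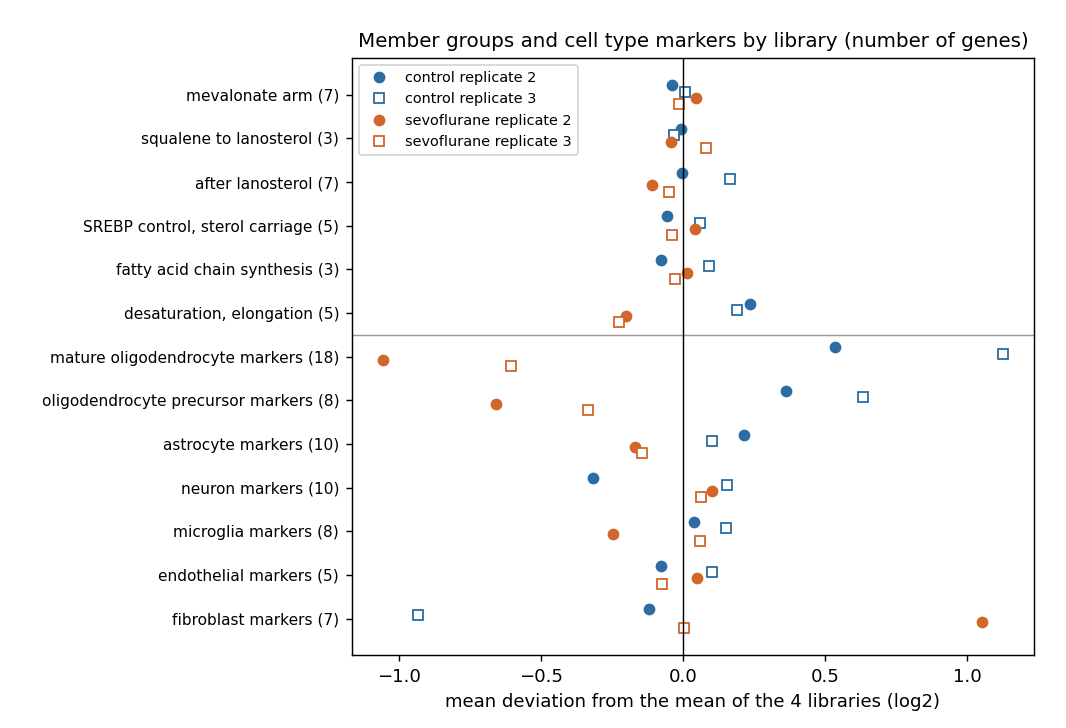
Mean deviation of each member group and each cell type marker list from the mean of the 4 libraries (log2), by library, with the number of genes in parentheses. Desaturases and elongases separate the groups at 0.19 to 0.23 against -0.23 to -0.20, sterol groups lie between -0.11 and 0.17, with the enzymes after lanosterol at both ends, and mature oligodendrocyte markers spread from -1.06 to 1.13.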

How the data were processed

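The authors deposited 1 table of raw counts of reads per gene with a column per library, used here as deposited. HISAT2 was the aligner, per the submitters' processing notes. The counting program, genome build, annotation and strand setting were not given in the sources used here, so genes that overlap or have near-identical copies are uncertain. Members were matched by symbol; CYP51A1 and CYP46A1 were found through RefSeq gene numbers (names alone). No sequence was used.

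The tests used edgeR 4.0.16 in R 4.3.3 (filterByExpr, TMM, quasi-likelihood F test, two-sided, group as the only term), fitted on the whole table. Alternatives were other scalings and filters, DESeq2 1.42.0, limma-voom (limma 3.58.1), edgeR's likelihood ratio test, a block on replicate number and leaving out each library. Deviations used log2(CPM + 0.5). Steps were tested on simulated data. The 2 libraries of a group differed by more than sampling noise. With 2 against 2, an exact permutation test cannot give a two-sided p below 0.333, so none was made. All 30 members found are named; values per library are given for members with an unadjusted p under 0.05, the largest differences in each role and first or rate-limiting enzymes, while MVD, EBP, LSS, SREBF2 and FADS1 were added after their values were seen. The members and lists were chosen with earlier results of these data known.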

Additional observations from a re-analysis of the deposited data

How the results depend on the processing

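No member was called higher in any setting. The count called lower was 1 by DESeq2 (SCD), 2 by edgeR's likelihood ratio test, and 0 to 1 with 1 library left out. The members' median ranged from -0.13 to -0.0022 with 1 library left out. Over all genes, 11 were called higher and 95 lower, against 3 and 57 with no filter, 60 and 219 by DESeq2, 7 higher by limma-voom, 137 and 304 by the likelihood ratio test, and 27 to 81 higher and 118 to 232 lower with 1 library left out. With the replicate block the counts were 170 and 341 over all genes and 0 among members, with ELOVL5 nearest at adjusted p = 0.0531. The labels give the numbers no meaning, and differences between replicates 2 and 3 correlated at 0.01 across genes between the groups. STARD4, near 0, changed sign with library size alone (0.014), the stricter filter (0.00087) and limma-voom (0.0045). With 1 library left out, 11 members had values on both sides of 0: ACAT2 (-0.064 to 0.18), MVD (-0.20 to 0.33), IDI1 (-0.076 to 0.21), SQLE (-0.21 to 0.0057), HSD17B7 (-0.23 to 0.094), EBP (-0.29 to 0.17), SC5D (-0.010 to 0.16), SREBF2 (-0.15 to 0.061), SCAP (-0.26 to 0.016), STARD4 (-0.085 to 0.079) and ACLY (-0.10 to 0.11). The other 19 kept their sign throughout. Such fits leave 1 group with 1 library, assumed to vary like the other group. Adding CYP51A1 gave a median of -0.07 and no call.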
